A study of Homo sapiens with 7 samples.

Results

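The genes described here are 42 genes of antigen presentation and immune recognition in MDA-MB-231 cells: HLA molecules, the machinery that loads them with peptide, immunoproteasome subunits, the transcription factors that drive HLA genes, and surface ligands read by T cells, macrophages and natural killer (NK) cells. They were chosen as a list of named genes among the 60675 gene identifiers of the deposited count table. All 42 passed the filter on low counts, among 16583 tested genes. MDA-MB-231 is an established human triple-negative breast cancer line, and the study compared its transcriptome with and without silencing of DEPDC1. The siDEPDC1 group (4 libraries, labelled DEPDC1 KD) received siRNA against DEPDC1, and the siCTL group (3 libraries, labelled DEPDC1 WT) a control siRNA. Both groups were transfected with 5 µl of 20 µM siRNA and 5 µl of Lipofectamine RNAiMAX in 300 µl of Opti-MEM, received fresh medium at 8 h and were harvested on day 2. The siRNA sequence was not given in the sources used here, and both groups share the transfection reagent. The labels do not say whether the replicates were separate cultures. The p-values therefore set the group difference only against the spread between these libraries, which can be technical.

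Cells display peptides from their own cytosol on HLA class I molecules. Proteasomes cut the proteins, the TAP transporter carries the peptides into the endoplasmic reticulum, aminopeptidases trim them, and a complex of chaperones loads them onto a heavy chain paired with beta-2 microglobulin. Class II molecules present peptides from the endosomal pathway to CD4+ T cells and are made mostly by professional antigen presenting cells, although tumour cells can express them. The RFX complex and NF-Y bind short conserved boxes in both kinds of promoter, where NLRC5 is the coactivator of class I genes and CIITA that of class II genes. Interferon gamma, which induces IRF1, is the best known inducer of the pathway.

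DEPDC1, the siRNA target (ENSG00000024526; GRCh38 chromosome 1, 68474152 to 68497221, minus strand), stood at 15.3, 12.7, 13.4 and 11.9 CPM in the siDEPDC1 libraries, against 114, 119 and 120.3 CPM in the siCTL libraries. Its means were 13.3 ± 1.43 CPM in siDEPDC1 and 118 ± 3.20 CPM in siCTL, so that 11.3% of the transcript was left (log2 change -3.15 ± 0.075 SE, edgeR adjusted p = 1.2e-26). Totals were 7690583 to 13483305 counts in the siDEPDC1 libraries and 11704246 to 15360409 counts in the siCTL libraries, and the first principal component of log2 CPM, with 50.9% of the variance, separated the groups. Among mesenchymal markers that MDA-MB-231 cells are known for, vimentin (VIM) was at 3671 ± 125 CPM in siDEPDC1 and 3713 ± 166 CPM in siCTL. CD44 was at 427 ± 12.7 CPM in siDEPDC1 and 403 ± 9.47 CPM in siCTL. These markers were not all unchanged: of 5 examined, CAV1 and ZEB1 fell and 0 rose at an edgeR adjusted p under 0.05. Of all tested genes, 17.9% fell and 16.5% rose. The receptor genes ESR1 and PGR, whose products triple-negative tumours lack by definition, had too few counts to be tested. ERBB2, the gene of the remaining receptor of that definition, was at 66.0 ± 4.14 CPM in siDEPDC1 and 64.5 ± 0.869 CPM in siCTL. CPM are counts scaled to library size with edgeR's TMM factors, ± marks the SD over libraries (n = 4 for siDEPDC1 and n = 3 for siCTL) unless SE is written, and log2 changes are fold changes of siDEPDC1 over siCTL.

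Of the 42 genes, 12 fell and 8 rose after DEPDC1 silencing in edgeR's quasi-likelihood test with Benjamini-Hochberg adjustment over all tested genes at 0.05. The 20 called genes were 47.6% of the list, beside 34.4% of all tested genes called in either direction. Falls took 28.6% of the list, beside 17.9% of all tested genes, and rises took 19% of it, beside 16.5%. The tested genes include many with few counts, and the list was chosen with earlier results of these data known. With a stricter filter (50 counts per library), 12 of 41 listed genes fell and 8 rose. Of the 12396 genes tested there, 2622 fell and 2567 rose. The excess of called genes in the list was smaller in that fit, and rises were no more frequent in the list than among all its tested genes. For 20 of the 42 genes the libraries of the groups did not overlap in CPM (47.6%, beside 37.3% of all tested genes). The changes were small: the largest was 1.54-fold (RFXAP, a gene at a low level). The median absolute log2 fold change was 0.19 in the list and 0.19 over all tested genes. The signed median was -0.096 in the list and 0.00094 over all tested genes, and 29 of the 42 genes lay below zero. Without siCTL replicate 1 the falls dropped to 7, with 8 rises, beside 2467 falls and 2164 rises among 16828 tested genes in that fit. That library therefore bears on the number of genes called lower.

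By role, the falls lay mostly on the class I route and the rises among class II and RFX genes. Of 20 genes of the class I route (class I molecules, peptide transport and loading, immunoproteasome and NLRC5), 10 fell and 0 rose, with a median log2 fold change of -0.20, and 19 lay below zero. Of 6 class II genes, 4 rose and 0 fell, with a median of 0.40. All 3 subunits of the RFX complex rose. Checkpoint ligands had 1 fall among 4, and NK cell ligands 1 fall and 1 rise among 6. Of all tested genes 17.9% fell and 16.5% rose, and each count of falls or rises here and below stands beside those shares. Those shares include the genes with few counts, and both were larger with the stricter filter given above. The number of falls on the class I route ran from 6 (without siCTL replicate 1) to 14 (after removal of a GC and length trend) over 15 other ways of processing. Those fits called 2467 of 16828 and 3330 of 16583 tested genes lower. In all 15, 0 genes of the route rose. The 4 class II genes were called higher in all 15. Of the RFX subunits, 2 were called higher in all 15, and RFXANK lost its call in 8.

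**Figure D1:**
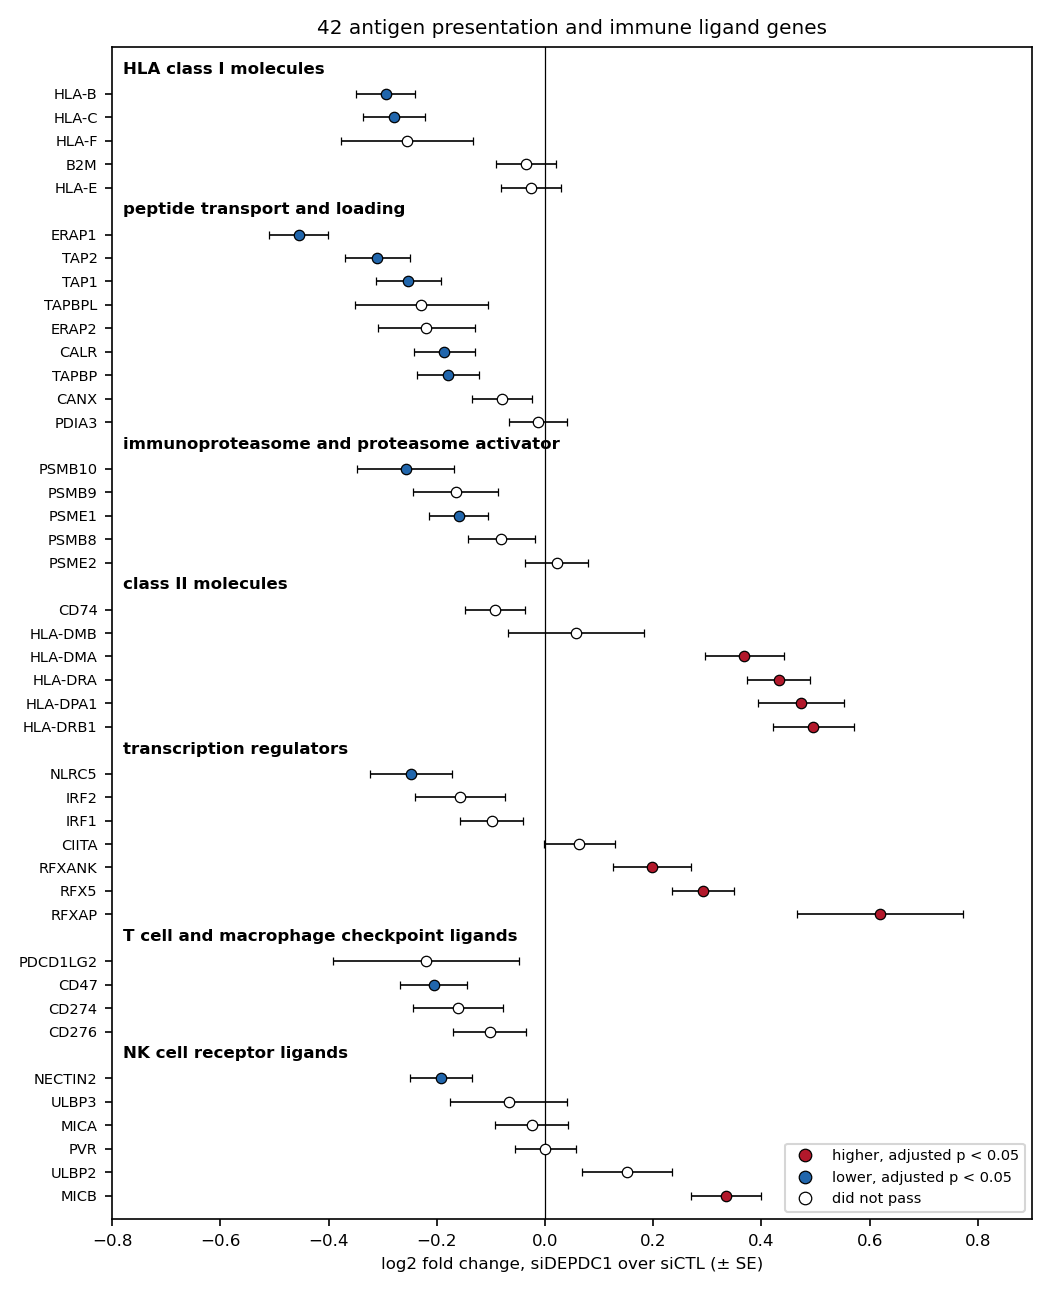
Log2 fold change, siDEPDC1 over siCTL, of the 42 genes by role (points, with SE as bars); filled points passed an edgeR adjusted p of 0.05, blue for lower and red for higher. The class I molecules, loading genes and proteasome subunits lie at or left of zero except PSME2 at 0.022, and 4 of the 6 class II genes lie between 0.37 and 0.50.

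The class I heavy chains HLA-B and HLA-C fell, while HLA-E, HLA-F and B2M did not pass the test. HLA-B, a classical heavy chain that presents peptides to CD8+ T cells (ENSG00000234745; GRCh38 chromosome 6, 31269491 to 31357188, minus strand), stood at 420.4, 443, 447 and 478 CPM in the siDEPDC1 libraries, against 557, 547 and 540.3 CPM in the siCTL libraries. The means were 447 ± 23.6 CPM in siDEPDC1 and 548 ± 8.65 CPM in siCTL, every siDEPDC1 library lay below every siCTL library, and the gene fell (log2 change -0.29 ± 0.055 SE, edgeR adjusted p = 5.8e-05). HLA-C, the classical chain also read by killer cell immunoglobulin-like receptors (ENSG00000204525; GRCh38 chromosome 6, 31268749 to 31272130, minus strand), stood at 298, 322, 311 and 351 CPM in the siDEPDC1 libraries, against 398, 397 and 372 CPM in the siCTL libraries. It fell as well, with no overlap (log2 change -0.28 ± 0.057 SE, edgeR adjusted p = 0.00021). Among the siDEPDC1 libraries, replicate 1 was the lowest and replicate 4 the highest for both chains.

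B2M, the light chain shared by class I molecules (ENSG00000166710; GRCh38 chromosome 15, 44711487 to 44718877, plus strand), stood at 647, 669, 623 and 615 CPM in the siDEPDC1 libraries, against 622, 654 and 688 CPM in the siCTL libraries. The groups overlapped across most of their range, and B2M did not pass the test (log2 change -0.036 ± 0.055 SE, edgeR adjusted p = 0.66). HLA-E, which shows leader peptides of other class I chains to NKG2A on NK cells, was at 278 ± 16.8 CPM in siDEPDC1 and 283 ± 8.04 CPM in siCTL (log2 change -0.026 ± 0.056 SE, edgeR adjusted p = 0.76). HLA-F, a nonclassical chain with few counts, was at 8.62 ± 1.16 CPM in siDEPDC1 and 10.2 ± 1.02 CPM in siCTL (log2 change -0.26 ± 0.12 SE, edgeR adjusted p = 0.1). It passed without siDEPDC1 replicate 4, at -0.33 (edgeR adjusted p = 0.048, over a range of 0.014 to 0.4 in its alternatives). Per kilobase of transcript, the summed HLA-B and HLA-C level was 1.33 ± 0.117 times that of B2M in siDEPDC1 and 1.59 ± 0.118 times in siCTL, with ranges of 1.23 to 1.49 and 1.47 to 1.70 that overlapped at their edges.

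Counting limits apply to the class I chains. GENCODE's HLA-B model shares 35 exon bases with HLA-C and 542 exon bases with AL671883.2 on the opposite strand, a gene with a mean count of 1181 that had a log2 fold change of -0.34. The strand setting is unknown, so reads from such pairs cannot be told apart. Of all windows of 50 bases in the HLA-C transcript, 6.79% also occur in another gene, as do 2.54% of those in HLA-B. Whether the HLA alleles of the cell line differ from the reference sequence was not tested.

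Of the 9 genes of peptide transport and loading, 5 fell and 0 rose. TAP1 and TAP2 form the transporter that brings peptides into the endoplasmic reticulum. TAP1 (ENSG00000168394; GRCh38 chromosome 6, 32845209 to 32853978, minus strand) stood at 83.0, 89.6, 88.0 and 93.8 CPM in the siDEPDC1 libraries, against 109, 109 and 99.0 CPM in the siCTL libraries, with no overlap between the groups (log2 change -0.25 ± 0.06 SE, edgeR adjusted p = 0.0012). TAP2 (ENSG00000204267; GRCh38 chromosome 6, 32821833 to 32838780, minus strand) stood at 74.0, 71.9, 72.4 and 66.6 CPM in the siDEPDC1 libraries, against 90.5, 85.1 and 89.3 CPM in the siCTL libraries, again with no overlap (log2 change -0.31 ± 0.06 SE, edgeR adjusted p = 0.00012). Per kilobase of transcript the subunits were at nearly equal levels: TAP1 was at 30.0 ± 1.504 CPM per kb in siDEPDC1 and 35.7 ± 1.94 CPM per kb in siCTL. The TAP2 values were 28.5 ± 1.30 CPM per kb in siDEPDC1 and 35.4 ± 1.14 CPM per kb in siCTL.

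ERAP1, the aminopeptidase that trims peptides to the length class I molecules accept (ENSG00000164307; GRCh38 chromosome 5, 96760810 to 96808100, minus strand), had the largest fall of the 42 genes. It stood at 164, 158, 151 and 153 CPM in the siDEPDC1 libraries, against 213, 210.3 and 220.4 CPM in the siCTL libraries, with a wide gap between the groups (log2 change -0.46 ± 0.054 SE, edgeR adjusted p = 2.8e-08). Its relative ERAP2 was at 18.9 ± 2.15 CPM in siDEPDC1 and 22.0 ± 0.297 CPM in siCTL and did not pass the test (log2 change -0.22 ± 0.089 SE, edgeR adjusted p = 0.054); siDEPDC1 replicate 1, at 21.8 CPM, lay within the siCTL range of 21.7 to 22.2 CPM while the other siDEPDC1 libraries were at 16.6 to 19.0 CPM. Without that library ERAP2 passed, at -0.29 (edgeR adjusted p = 0.0089, over a range of 0.0089 to 0.26).

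Among the loading chaperones, TAPBP and CALR fell. TAPBP, or tapasin, which bridges TAP and the class I heavy chain (ENSG00000231925; GRCh38 chromosome 6, 33299694 to 33314387, minus strand), stood at 329.6, 324, 348 and 369.9 CPM in the siDEPDC1 libraries, against 413, 368 and 384 CPM in the siCTL libraries. It fell (log2 change -0.18 ± 0.057 SE, edgeR adjusted p = 0.014), although siDEPDC1 replicate 4 lay just above siCTL replicate 2. Leaving out replicate 1 of siCTL (edgeR adjusted p = 0.15) or replicate 2 of siDEPDC1 (0.077) ended the call, over a range of 2.4e-06 to 0.15. CALR, or calreticulin, a lectin chaperone of the loading complex (ENSG00000179218; GRCh38 chromosome 19, 12938578 to 12944489, plus strand), stood at 1400.2, 1534, 1454 and 1569 CPM in the siDEPDC1 libraries, against 1689, 1698 and 1697 CPM in the siCTL libraries. It fell with no overlap between the groups (log2 change -0.19 ± 0.057 SE, edgeR adjusted p = 0.01). Calnexin (CANX), which holds newly made heavy chains, was at 1155 ± 34.8 CPM in siDEPDC1 and 1221 ± 63.0 CPM in siCTL (log2 change -0.08 ± 0.056 SE, edgeR adjusted p = 0.28). PDIA3, the disulfide isomerase ERp57, was at 293 ± 9.79 CPM in siDEPDC1 and 296 ± 10.0 CPM in siCTL (log2 change -0.013 ± 0.054 SE, edgeR adjusted p = 0.88), and 18.4% of its windows of 50 bases occur in another gene, mostly its pseudogene PDIA3P1. TAPBPL, the tapasin-related peptide editor, was at 7.71 ± 0.331 CPM in siDEPDC1 and 9.04 ± 1.199 CPM in siCTL (log2 change -0.23 ± 0.12 SE, edgeR adjusted p = 0.15). None of these last 3 genes passed the test.

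**Figure D2:**
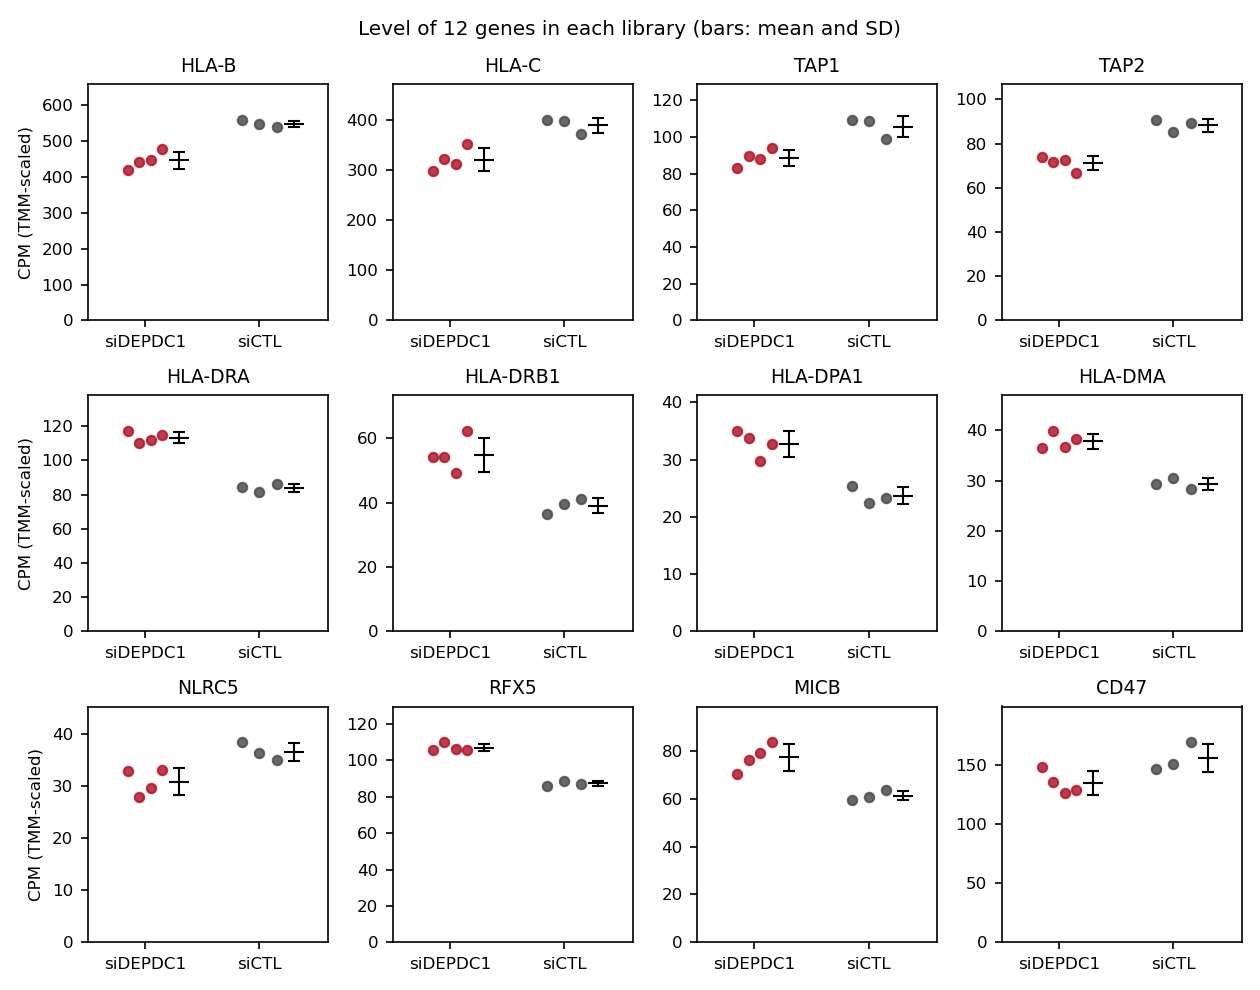
CPM of 12 of the genes in each library (points; replicates from left to right), siDEPDC1 left of siCTL, with the mean and SD as bars and each vertical axis from 0. The HLA-B, HLA-C, TAP1, TAP2 and NLRC5 points of siDEPDC1 lie below those of siCTL, those of the class II genes, RFX5 and MICB lie above, and CD47 overlaps.

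The 3' UTR of ERAP1 holds a 7-base word that the libraries themselves single out, so the sites are shown here. The word GATAACT is in 952 of 12341 searched 3' UTRs (7.71%); its carriers had a median log2 fold change of -0.24 and 54% of them fell, against 0.014 and 17.5% for genes without it. It was picked as the word of 7 bases whose carriers ranked lowest in fold change in these same data. The fall of its carriers is therefore no separate result, and its origin was not tested. Of the 41 listed genes searched, only ERAP1 and PDIA3 carry it. The ERAP1 site lies at chromosome 5, 96761427 to 96761433, minus strand, and the PDIA3 site at chromosome 15, 43773109 to 43773115, plus strand (GRCh38, GENCODE 29). Each is printed 5′ to 3′ with the word in capitals.
ERAP1: aaactaatttaGATAACTataagatactt
PDIA3: aaaattcccttGATAACTtcagctgcccc
ERAP1 fell and PDIA3 did not pass the test, with the log2 fold changes of -0.46 and -0.013 given above. No other listed gene that fell and was searched holds the word in the transcript searched, which says nothing of other isoforms.

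In the immunoproteasome and its activator, PSMB10 and PSME1 fell, and both calls depended on single libraries. The inducible subunits PSMB8, PSMB9 and PSMB10 replace PSMB5, PSMB6 and PSMB7 of the constitutive proteasome, and PSME1 with PSME2 forms the PA28 activator. PSMB10 (ENSG00000205220; GRCh38 chromosome 16, 67934502 to 67937087, minus strand) stood at 16.2, 20.0, 18.4 and 16.4 CPM in the siDEPDC1 libraries, against 22.1, 21.5 and 20.2 CPM in the siCTL libraries, with the groups apart by less than 1 CPM (log2 change -0.26 ± 0.089 SE, edgeR adjusted p = 0.024). It lost the call in 6 of 15 alternatives, among them DESeq2 (adjusted p = 0.077) and the edgeR fits that left out replicate 1 (0.1) or 2 (0.074) of siCTL, or replicate 1 (0.063) or 4 (0.075) of siDEPDC1, over a range of 0.00028 to 0.1. PSME1 (ENSG00000092010; GRCh38 chromosome 14, 24136158 to 24138967, plus strand) stood at 163, 177, 171 and 179 CPM in the siDEPDC1 libraries, against 193, 195 and 191 CPM in the siCTL libraries, also with no overlap (log2 change -0.16 ± 0.054 SE, edgeR adjusted p = 0.021). Its call ended with scaling by library size alone (edgeR adjusted p = 0.055) and on leaving out replicate 1 (0.072) or 2 (0.082) of siCTL or replicate 3 of siDEPDC1 (0.06), over a range of 1.7e-05 to 0.082.

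PSMB8, PSMB9 and PSME2 did not pass the test. PSMB8 was at 74.3 ± 4.56 CPM in siDEPDC1 and 78.8 ± 1.95 CPM in siCTL (log2 change -0.081 ± 0.062 SE, edgeR adjusted p = 0.33), and PSME2 at 109.9 ± 4.70 CPM in siDEPDC1 and 108 ± 3.82 CPM in siCTL (log2 change 0.022 ± 0.058 SE, edgeR adjusted p = 0.81). PSMB9 was at 30.4 ± 2.66 CPM in siDEPDC1 and 33.9 ± 2.33 CPM in siCTL (log2 change -0.16 ± 0.079 SE, edgeR adjusted p = 0.1) and passed without siCTL replicate 3, at -0.22 (edgeR adjusted p = 0.043, over a range of 0.0019 to 0.3). PSMB8-AS1, at a mean count of 370, overlaps exons of PSMB8 and PSMB9 and of TAP1, so their counts may share reads.

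Of 6 constitutive catalytic subunits and other activators, 2 rose and 1 fell, beside 16.5% and 17.9% of all tested genes. PSMB6, the constitutive partner of PSMB9, rose to 124 ± 4.69 CPM in siDEPDC1, against 101 ± 3.94 CPM in siCTL (log2 change 0.30 ± 0.058 SE, edgeR adjusted p = 0.00011). POMP, the proteasome assembly chaperone, rose (log2 change 0.17 ± 0.067 SE, edgeR adjusted p = 0.04), and PSME4, the PA200 activator, fell (log2 change -0.16 ± 0.055 SE, edgeR adjusted p = 0.019). The balance between inducible and constitutive subunits is given as a description, with no test. Per kilobase, PSMB9 was 0.250, 0.256, 0.280 and 0.280 of PSMB6 in the siDEPDC1 libraries, against 0.375, 0.371 and 0.353 in the siCTL libraries. Both genes enter that ratio: PSMB6 rose, and PSMB9 had a log2 change of -0.16 ± 0.079 SE that did not pass the test. PSMB8 was 0.713 ± 0.0132 of PSMB5 in siDEPDC1 and 0.835 ± 0.0324 in siCTL, with no overlap. Neither PSMB8 nor PSMB5 (log2 change 0.14 ± 0.06 SE, edgeR adjusted p = 0.067) passed the test. PSMB10 was 0.0902 ± 0.00861 of PSMB7 in siDEPDC1 and 0.101 ± 0.00371 in siCTL, and these ranges overlapped.

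**Figure D3:**
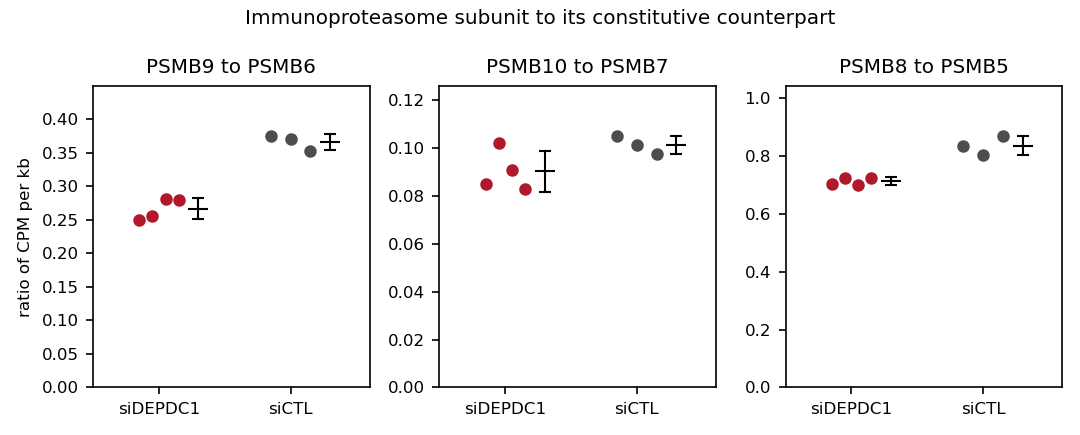
Ratio of each inducible proteasome subunit to its constitutive counterpart, in CPM per kilobase of transcript, for each library (points) with mean and SD (bars), siDEPDC1 left of siCTL and axes from 0. PSMB9 to PSMB6 lies at 0.250 to 0.280 in siDEPDC1 and at 0.353 to 0.375 in siCTL, PSMB8 to PSMB5 is also separate, and PSMB10 to PSMB7 overlaps.

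Of the 6 class II genes, 4 rose: HLA-DRA, HLA-DRB1, HLA-DPA1 and HLA-DMA. HLA-DRA, the alpha chain of HLA-DR (ENSG00000204287; GRCh38 chromosome 6, 32439842 to 32445046, plus strand), stood at 117, 109.9, 112 and 115 CPM in the siDEPDC1 libraries, against 84.3, 81.6 and 86.1 CPM in the siCTL libraries. Its groups were tight and far apart (log2 change 0.43 ± 0.058 SE, edgeR adjusted p = 2.9e-07). HLA-DRB1, the polymorphic beta chain (ENSG00000196126; GRCh38 chromosome 6, 32578769 to 32589848, minus strand), stood at 54.1, 54.1, 49.2 and 62.1 CPM in the siDEPDC1 libraries, against 36.6, 39.6 and 41.1 CPM in the siCTL libraries. It rose (log2 change 0.50 ± 0.075 SE, edgeR adjusted p = 2.3e-06), with siDEPDC1 replicate 4 the highest library, and 9.92% of its windows of 50 bases occur in another gene, mostly HLA-DRB5. HLA-DPA1, the alpha chain of HLA-DP (ENSG00000231389; GRCh38 chromosome 6, 33064569 to 33080775, minus strand), stood at 34.9, 33.7, 29.7 and 32.7 CPM in the siDEPDC1 libraries, against 25.3, 22.5 and 23.3 CPM in the siCTL libraries and rose with no overlap (log2 change 0.47 ± 0.079 SE, edgeR adjusted p = 1.3e-05). Its partner HLA-DPB1, not in the list and chosen after its value was seen, overlaps it by 96 exon bases on the opposite strand and had a log2 fold change of 0.61 (edgeR adjusted p = 6.8e-06).

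HLA-DMA, a chain of the HLA-DM editor that exchanges peptides on class II molecules (ENSG00000204257; GRCh38 chromosome 6, 32948613 to 32969094, minus strand), stood at 36.4, 39.8, 36.7 and 38.3 CPM in the siDEPDC1 libraries, against 29.2, 30.5 and 28.2 CPM in the siCTL libraries. It rose, with each siDEPDC1 library above each siCTL library (log2 change 0.37 ± 0.073 SE, edgeR adjusted p = 0.00015). The other chain, HLA-DMB, was at 9.69 ± 1.30 CPM in siDEPDC1 and 9.54 ± 1.59 CPM in siCTL and did not pass the test (log2 change 0.058 ± 0.13 SE, edgeR adjusted p = 0.76). The DM chains differed in level too: per kilobase, HLA-DMA was at 33.7 ± 1.39 CPM per kb in siDEPDC1 and 26.1 ± 0.989 CPM per kb in siCTL. HLA-DMB was at 6.94 ± 0.929 CPM per kb in siDEPDC1 and 6.83 ± 1.14 CPM per kb in siCTL.

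CD74, the invariant chain that guides class II molecules to endosomes and was the most abundant class II gene per kilobase (ENSG00000019582; GRCh38 chromosome 5, 150401637 to 150412929, minus strand), stood at 517, 553, 551 and 583 CPM in the siDEPDC1 libraries, against 613, 572 and 579 CPM in the siCTL libraries. The groups overlapped and CD74 did not pass the test (log2 change -0.093 ± 0.055 SE, edgeR adjusted p = 0.2), whereas it was called lower after removal of a GC and length trend, at -0.20 (edgeR adjusted p = 7.4e-05, over a range of 7.4e-05 to 0.55). Per kilobase, HLA-DRA was 0.173, 0.152, 0.155 and 0.151 of CD74 in the siDEPDC1 libraries, against 0.106, 0.109 and 0.114 in the siCTL libraries. HLA-DRB1 was 0.155 ± 0.0114 of HLA-B in siDEPDC1 and 0.0898 ± 0.00663 in siCTL. The gap between these ranges follows from the rise of HLA-DRB1 and the fall of HLA-B, each with no overlap.

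Markers of immune cells, which carry class II molecules in tissue, were low throughout. The summed level of 15 such markers was 8.99 to 12.2 CPM in the siDEPDC1 libraries and 9.28 to 9.90 CPM in the siCTL libraries. CD2, MS4A1 and CD163 had 0 counts in all 7 libraries, and 11 of the 15 were under 1 CPM in every library. Of the 3 that could be tested, CD14, the monocyte coreceptor for lipopolysaccharide, rose to 3.25 ± 0.634 CPM in siDEPDC1, against 2.06 ± 0.498 CPM in siCTL (log2 change 0.60 ± 0.22 SE, edgeR adjusted p = 0.028). CSF1R, the receptor of a macrophage growth factor (log2 change 0.01 ± 0.15 SE, edgeR adjusted p = 0.97), and CD3D, a T cell receptor subunit (log2 change 0.30 ± 0.40 SE, edgeR adjusted p = 0.6), did not pass. PTPRC, the leukocyte marker CD45, had too few counts to be tested, at 0.283 ± 0.128 CPM in siDEPDC1 and 0.873 ± 0.480 CPM in siCTL. In bulk samples, fewer cells expressing a gene and less RNA per cell cannot be told apart.

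Of the other genes of the class II route, CTSS, or cathepsin S, which degrades the invariant chain, rose to 8.65 ± 0.763 CPM in siDEPDC1, against 5.25 ± 0.634 CPM in siCTL (log2 change 0.71 ± 0.13 SE, edgeR adjusted p = 7.5e-05). It was the only one of 4 tested class II processing genes past the threshold, and IFI30 had too few counts to be tested.

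Of 7 transcription regulators, 1 fell and 3 rose. NLRC5, the class I coactivator (ENSG00000140853; GRCh38 chromosome 16, 56989485 to 57083531, plus strand), stood at 32.9, 27.9, 29.6 and 33.0 CPM in the siDEPDC1 libraries, against 38.3, 36.4 and 34.9 CPM in the siCTL libraries. It fell with no overlap (log2 change -0.25 ± 0.076 SE, edgeR adjusted p = 0.011). That call ended on leaving out replicate 1 of siCTL (edgeR adjusted p = 0.073) or replicate 2 of siDEPDC1 (0.074), over a range of 0.00077 to 0.074. CIITA, the class II coactivator (ENSG00000179583; GRCh38 chromosome 16, 10866222 to 10943021, plus strand), stood at 66.5, 63.3, 67.3 and 75.5 CPM in the siDEPDC1 libraries, against 63.2, 68.1 and 64.1 CPM in the siCTL libraries. The groups overlapped and CIITA did not pass the test (log2 change 0.064 ± 0.066 SE, edgeR adjusted p = 0.49). It was called higher after removal of a GC and length trend, at 0.13 (edgeR adjusted p = 0.031, over a range of 0.031 to 0.92).

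The RFX complex binds the X box of class I and class II promoters, and its 3 subunits rose. RFX5 (ENSG00000143390; GRCh38 chromosome 1, 151340640 to 151347357, minus strand) stood at 105, 109.8, 106 and 106 CPM in the siDEPDC1 libraries, against 86.2, 88.6 and 87.1 CPM in the siCTL libraries, with narrow groups that did not overlap (log2 change 0.29 ± 0.057 SE, edgeR adjusted p = 0.00012). AL391069.1, on the strand opposite to RFX5 with 358 shared exon bases and a mean count of 133, had a log2 fold change of 0.42. RFXAP (ENSG00000133111; GRCh38 chromosome 13, 36819224 to 36829104, plus strand) stood at 7.14, 6.48, 8.47 and 7.13 CPM in the siDEPDC1 libraries, against 5.08, 3.54 and 5.65 CPM in the siCTL libraries, a low level at which siCTL replicate 2 was lowest (log2 change 0.62 ± 0.15 SE, edgeR adjusted p = 0.0018). The size of the RFXAP rise was uncertain: leaving out single libraries gave log2 changes of 0.43 to 0.75. Its call held in every alternative, with adjusted p of 0.00028 to 0.047. RFXANK (ENSG00000064490; GRCh38 chromosome 19, 19192229 to 19201869, plus strand) stood at 39.6, 41.8, 40.4 and 45.4 CPM in the siDEPDC1 libraries, against 38.1, 35.5 and 35.9 CPM in the siCTL libraries (log2 change 0.20 ± 0.072 SE, edgeR adjusted p = 0.032). Its call was lost in 8 of 15 alternatives, among them DESeq2 (adjusted p = 0.06), GC and length removal (edgeR adjusted p = 0.2) and the fits that left out replicate 2 (0.13) or 3 (0.079) of siCTL, or replicate 2 (0.058) or 4 (0.091) of siDEPDC1, over a range of 0.014 to 0.2. RFX5 was 6.65 ± 0.667 times NLRC5 per kilobase in siDEPDC1 and 4.57 ± 0.244 times in siCTL. These ranges could not overlap, because RFX5 rose and NLRC5 fell with no overlap, so the ratio is no separate result.

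Of 4 partners of RFX at these promoters, 2 fell and 1 rose. NFYA, a subunit of the NF-Y factor that binds CCAAT boxes, fell to 58.4 ± 3.75 CPM in siDEPDC1, against 91.8 ± 4.49 CPM in siCTL (log2 change -0.65 ± 0.064 SE, edgeR adjusted p = 3.6e-10). NFYC, another subunit, rose (log2 change 0.28 ± 0.062 SE, edgeR adjusted p = 0.00056), and CREB1, which binds the neighbouring X2 box, fell (log2 change -0.30 ± 0.068 SE, edgeR adjusted p = 0.00065). NFYB, the remaining subunit, had a log2 fold change of 0.17 ± 0.088 SE and did not pass the test.

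IRF1, the interferon-induced activator of class I genes, was at 80.0 ± 0.562 CPM in siDEPDC1 and 85.7 ± 2.98 CPM in siCTL. Its groups did not overlap, yet it did not pass the test (log2 change -0.10 ± 0.059 SE, edgeR adjusted p = 0.2). IRF2, its close relative, was at 23.9 ± 1.57 CPM in siDEPDC1 and 26.7 ± 2.57 CPM in siCTL (log2 change -0.16 ± 0.083 SE, edgeR adjusted p = 0.14). Among 10 genes of the interferon gamma receptor and JAK-STAT signalling, 2 fell and 2 rose, near the 17.9% and 16.5% of all tested genes. The receptor chain IFNGR2 (log2 change -0.37 ± 0.072 SE, edgeR adjusted p = 0.00011) and the kinase JAK2 (log2 change -0.41 ± 0.12 SE, edgeR adjusted p = 0.0072) fell. The inhibitor SOCS3 rose (log2 change 0.26 ± 0.071 SE, edgeR adjusted p = 0.0041), as did the other receptor chain, IFNGR1, named here because it completes the count (log2 change 0.23 ± 0.081 SE, edgeR adjusted p = 0.024).

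**Figure D4:**
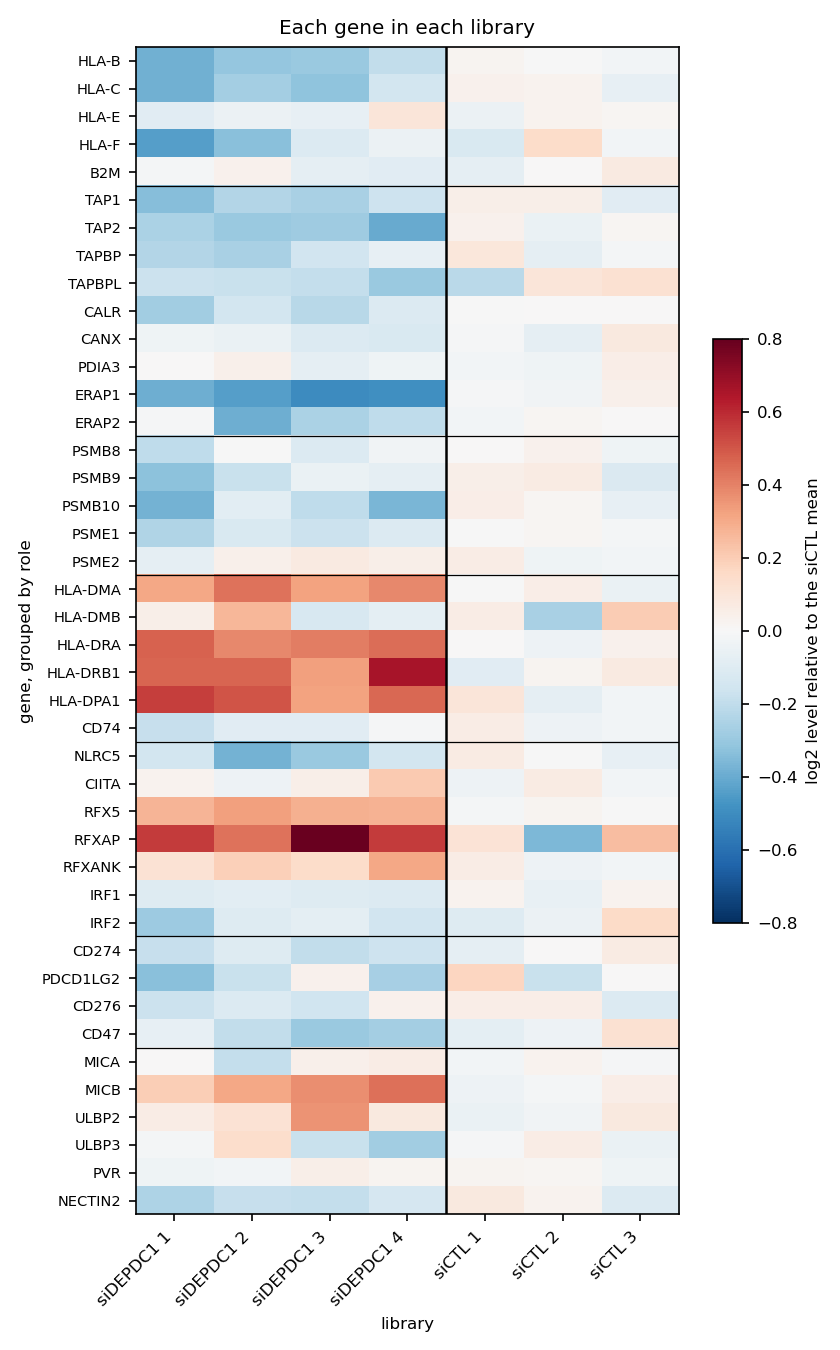
Log2 level of each of the 42 genes in each library relative to the siCTL mean, siDEPDC1 libraries left of siCTL libraries and genes grouped by role; blue is lower and red higher. The class II genes other than CD74 and HLA-DMB and the RFX genes are red in the 4 siDEPDC1 libraries, and the HLA-B, HLA-C, TAP and ERAP1 rows are blue.

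The median level of a role differed between the libraries of a group. Relative to the siCTL mean, the median log2 level of the class I molecules was -0.38, -0.27, -0.11 and -0.090 in the siDEPDC1 libraries, against -0.047, 0.030 and -0.021 in the siCTL libraries. The gene at this median was HLA-B, HLA-C, HLA-F and B2M in the siDEPDC1 libraries in turn, so its spread partly reflects which gene is in the middle. HLA-B itself was at -0.38, -0.31, -0.295 and -0.20, and HLA-C at -0.39, -0.27, -0.32 and -0.15. Replicate 1 of siDEPDC1 had the lowest class I median. It also had the lowest median of the proteasome genes, at -0.24 against -0.071 to -0.11 in the other siDEPDC1 libraries, and there too the middle gene changed. The class II median was steadier, at 0.39, 0.41, 0.32 and 0.41 in siDEPDC1, against 0.032, -0.040 and 0.0067 in siCTL.

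Promoter sequences are shown for genes of each direction, because the falling class I genes and the rising class II genes are known to share promoter boxes. A RefSeq window of 250 bases before to 50 bases after the transcription start (GRCh38.p14) was matched for 35 of the 42 genes and for 27305 genes in all. Both strands were searched for the CCAAT box (CCAAT), the core of the interferon-stimulated response element (GAAANNGAAA) and the core of the gamma-activated site (TTCNNNGAA). The windows below run 5′ to 3′ on the minus strand of chromosome 6, with the matches of these motifs in capitals. They lie at chr6:31357130-31357429 (HLA-B), chr6:32853655-32853954 (TAP1), chr6:32589799-32590098 (HLA-DRB1) and chr6:32953048-32953347 (HLA-DMA).
HLA-B: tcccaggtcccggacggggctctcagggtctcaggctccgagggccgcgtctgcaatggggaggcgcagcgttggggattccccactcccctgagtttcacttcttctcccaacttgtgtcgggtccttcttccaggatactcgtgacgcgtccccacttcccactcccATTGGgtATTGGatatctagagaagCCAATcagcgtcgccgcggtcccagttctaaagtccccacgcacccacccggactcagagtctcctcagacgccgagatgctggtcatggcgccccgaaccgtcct
TAP1: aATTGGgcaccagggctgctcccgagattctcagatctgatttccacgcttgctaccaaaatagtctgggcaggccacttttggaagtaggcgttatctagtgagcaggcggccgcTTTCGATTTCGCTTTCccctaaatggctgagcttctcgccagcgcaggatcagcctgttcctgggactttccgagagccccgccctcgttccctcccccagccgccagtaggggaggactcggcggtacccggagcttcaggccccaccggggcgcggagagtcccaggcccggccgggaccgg
HLA-DRB1: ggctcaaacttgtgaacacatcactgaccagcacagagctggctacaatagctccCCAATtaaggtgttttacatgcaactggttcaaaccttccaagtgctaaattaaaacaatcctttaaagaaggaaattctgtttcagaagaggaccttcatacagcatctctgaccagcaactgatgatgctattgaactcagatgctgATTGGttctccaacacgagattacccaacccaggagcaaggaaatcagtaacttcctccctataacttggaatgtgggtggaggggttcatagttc
HLA-DMA: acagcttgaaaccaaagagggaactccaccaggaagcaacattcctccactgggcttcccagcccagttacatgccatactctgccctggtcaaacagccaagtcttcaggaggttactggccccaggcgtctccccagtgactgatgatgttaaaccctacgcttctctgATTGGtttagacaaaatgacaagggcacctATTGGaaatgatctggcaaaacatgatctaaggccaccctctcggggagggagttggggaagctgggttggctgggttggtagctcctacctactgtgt
The HLA-B window holds 3 CCAAT matches, the HLA-DRB1 and HLA-DMA windows 2 each, and the TAP1 window 1 CCAAT match beside 2 overlapping matches of the response element core. TAP1 has a second RefSeq window, which is not printed.

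The response element core was in 13 of the 35 matched genes (37.1%), beside 4.38% of all promoters searched. It was in 6 of the 11 matched genes that fell, 1 of the 7 that rose and 6 of the 17 that did not pass the test. The CCAAT box was in 19 of the 35 (54.3%), beside 39.7% of all promoters, and was found in 5 of 11 falling and 4 of 7 rising genes. The gamma-activated site core was in 4 of the 35 (11.4%), beside 9.38%. These are letter matches in the printed kind of window and describe no binding.

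Both directions occurred side by side in the genome. The major histocompatibility complex on chromosome 6 holds 16 of the 42 genes, of which 5 fell and 5 rose, and the 26 genes elsewhere had 7 falls and 3 rises. Of all tested genes 17.9% fell and 16.5% rose. TAP2 and TAP1, which fell, lie between HLA-DRB1 and HLA-DMA, which rose. The distance between the ends of the TAP2 and HLA-DRB1 models is 231985 bases. On the other side, 80651 bases separate TAP1 from HLA-DMB, which did not pass the test and lies between TAP1 and HLA-DMA. MICA, which did not pass the test, lies 79566 bases from MICB, which rose.

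**Figure D5:**
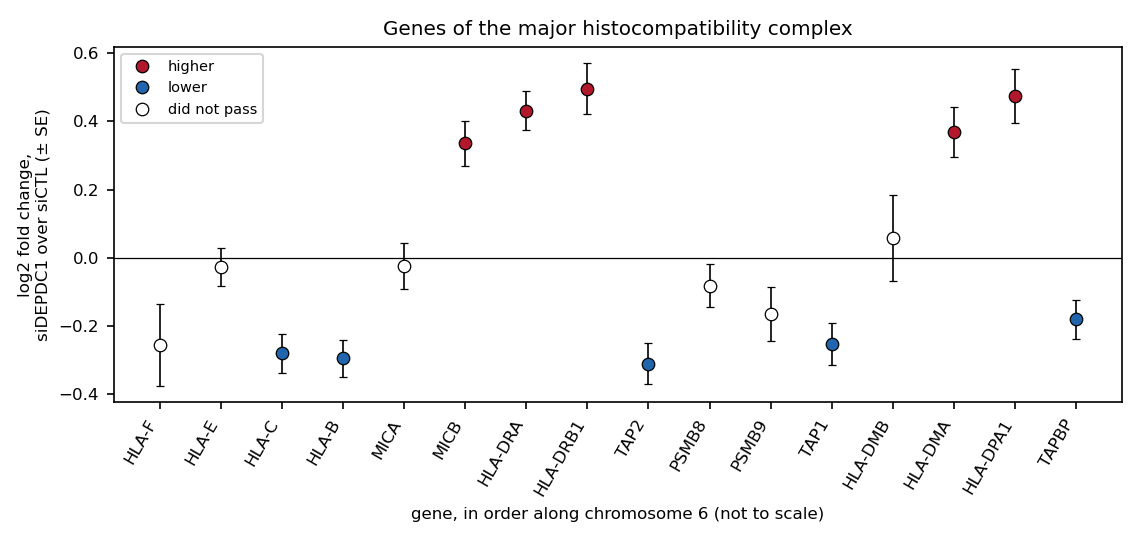
Log2 fold change, siDEPDC1 over siCTL, with SE of the 16 genes of the major histocompatibility complex in their order along chromosome 6 (not to scale); filled points passed an edgeR adjusted p of 0.05. Falls at HLA-C and HLA-B, TAP2 and TAP1 and TAPBP alternate with rises at MICB to HLA-DRB1 and at HLA-DMA and HLA-DPA1.

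Of the ligands read by T cells and macrophages, CD47 fell and the other 3 did not pass the test. CD274, or PD-L1, the ligand of the inhibitory receptor PD-1 (ENSG00000120217; GRCh38 chromosome 9, 5450503 to 5470566, plus strand), stood at 18.5, 19.6, 18.4 and 18.8 CPM in the siDEPDC1 libraries, against 20.0, 21.2 and 22.2 CPM in the siCTL libraries. The groups did not overlap, but the difference did not pass the test (log2 change -0.16 ± 0.084 SE, edgeR adjusted p = 0.14), nor did it in any of 15 alternatives, with adjusted p of 0.14 to 0.44. PDCD1LG2, or PD-L2, was the least abundant of the 42 genes per kilobase at 1.49 ± 0.192 CPM per kb in siDEPDC1 and 1.73 ± 0.232 CPM per kb in siCTL (log2 change -0.22 ± 0.17 SE, edgeR adjusted p = 0.34). CD276, or B7-H3, was at 57.3 ± 3.90 CPM in siDEPDC1 and 61.5 ± 3.88 CPM in siCTL (log2 change -0.10 ± 0.068 SE, edgeR adjusted p = 0.25). CD47, the ligand of SIRPA on macrophages (ENSG00000196776; GRCh38 chromosome 3, 108043094 to 108091862, minus strand), stood at 149, 136, 126 and 129 CPM in the siDEPDC1 libraries, against 147, 151 and 169 CPM in the siCTL libraries. It fell (log2 change -0.21 ± 0.062 SE, edgeR adjusted p = 0.0091), with siDEPDC1 replicate 1 inside the siCTL range. Its call ended on leaving out replicate 3 of siCTL (edgeR adjusted p = 0.091) or replicate 3 of siDEPDC1 (0.052) and with the replicate block (0.056), over a range of 0.00066 to 0.091.

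Of 5 regulators of the PD-L1 protein, 3 fell and 0 rose, beside 17.9% and 16.5% of all tested genes. CMTM6, which keeps PD-L1 from lysosomal breakdown, fell to 140.1 ± 9.03 CPM in siDEPDC1, against 158 ± 5.67 CPM in siCTL (log2 change -0.17 ± 0.058 SE, edgeR adjusted p = 0.022). Its relative CMTM4 (log2 change -0.20 ± 0.075 SE, edgeR adjusted p = 0.033) and the protease SPPL2A (log2 change -0.16 ± 0.065 SE, edgeR adjusted p = 0.049) fell as well.

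Among ligands of NK cell receptors, MICB rose and NECTIN2 fell. MICB, a stress-induced ligand of the activating receptor NKG2D (ENSG00000204516; GRCh38 chromosome 6, 31494881 to 31511124, plus strand), stood at 70.3, 75.9, 79.2 and 83.4 CPM in the siDEPDC1 libraries, against 59.6, 60.6 and 63.4 CPM in the siCTL libraries. Every siDEPDC1 library lay above every siCTL library (log2 change 0.34 ± 0.065 SE, edgeR adjusted p = 0.0001). Its neighbour and relative MICA was at 57.1 ± 4.38 CPM in siDEPDC1 and 57.8 ± 1.04 CPM in siCTL and did not pass the test (log2 change -0.025 ± 0.068 SE, edgeR adjusted p = 0.81). Per kilobase, MICB was 0.769 ± 0.0667 of MICA in siDEPDC1 and 0.600 ± 0.0222 in siCTL, with no overlap. Few of the windows of 50 bases are shared between the pair, 2.47% of those in MICA and 1.38% of those in MICB.

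The other NKG2D ligands of the list did not pass the test. ULBP2 was at 26.7 ± 2.75 CPM in siDEPDC1 and 23.9 ± 1.17 CPM in siCTL (log2 change 0.15 ± 0.083 SE, edgeR adjusted p = 0.16), and 32.2% of its windows of 50 bases occur in another gene, mostly RAET1L. ULBP3 was at 12.1 ± 1.61 CPM in siDEPDC1 and 12.7 ± 0.541 CPM in siCTL (log2 change -0.068 ± 0.11 SE, edgeR adjusted p = 0.67). NECTIN2, a ligand of DNAM-1 and of the inhibitory receptor PVRIG (ENSG00000130202; GRCh38 chromosome 19, 44846175 to 44889228, plus strand), stood at 130.0, 136, 135 and 141 CPM in the siDEPDC1 libraries, against 163, 158 and 143 CPM in the siCTL libraries. It fell with no overlap (log2 change -0.19 ± 0.058 SE, edgeR adjusted p = 0.0092). On leaving out replicate 1 (edgeR adjusted p = 0.1) or 2 (0.053) of siCTL it no longer passed, over a range of 4.2e-08 to 0.1. PVR, the better known DNAM-1 and TIGIT ligand, stood at 119 ± 3.27 CPM in siDEPDC1 and 119 ± 2.68 CPM in siCTL with a log2 fold change of 0.0006 ± 0.056 SE (edgeR adjusted p = 1).

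Other genes that fell or rose have neighbours whose reads may be counted with theirs. ERAP1 shares 299 exon bases with CAST on the opposite strand, which had a mean count of 4744 and a log2 change of -0.18. CALR shares 270 with AC092069.1, which had a mean count of 2390 and a log2 change of -0.097. HLA-DMA shares 55 with BRD2, which had a mean count of 4348 and a log2 change of -0.037. Of windows of 50 bases, 80.2% of those in TAP2 recur in the read-through model AL669918.1, which had 0 counts, and 38.9% of those in PSMB10 recur in AC040162.1, with a mean count of 17.0.

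Levels of different genes can be compared per kilobase of the kept transcript. In siDEPDC1 the order ran from CALR at 783 ± 40.2, CD74 at 562 ± 27.3, B2M at 374 ± 14.4 and HLA-B at 289 ± 15.3 CPM per kb down to ERAP2 at 3.32 ± 0.377, RFXAP at 3.17 ± 0.362 and PDCD1LG2 at 1.49 ± 0.192 CPM per kb. In siCTL the same 4 genes were at 891 ± 2.68, 599 ± 22.2, 384 ± 19.5 and 354 ± 5.59 CPM per kb. TAP1, RFX5, RFXANK, TAP2 and ERAP1 were neighbours in that order at 28.4 to 30.0 CPM per kb in siDEPDC1, with TAP1 at 30.0 ± 1.504 and ERAP1 at 28.4 ± 1.05. Each differed from the next by less than their SDs. In siCTL they were apart: ERAP1, TAP1 and TAP2 were at 39.0, 35.7 and 35.4, and RFXANK and RFX5 at 25.9 and 24.4 CPM per kb. The CIITA level per kilobase rests on a kept transcript of 16059 bases, so it is uncertain.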

How the data were processed

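The authors deposited whole-number counts per Ensembl gene for 7 libraries of MDA-MB-231 cells, not normalized. Per the labels' protocols, TruSeq RNA libraries were read from both ends for 100 bases. The submitters' processing notes name the build GRCh38 and, without saying what each did, STAR 2.7.9a, FastQC and DESeq2. Which counter, annotation release and strand setting were used was not given in the sources used here.

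Symbols were found for 60419 identifiers, and 58444 were in GENCODE 29, the source of coordinates and transcript lengths, which may differ from the annotation used to count. After filterByExpr by group, the quasi-likelihood F test of edgeR 4.0.16 was run under R 4.3.3 (two-sided, robust, TMM scaling), with group as the single term and Benjamini-Hochberg adjustment over all tested genes at 0.05. The SE is that implied by the F statistic. The procedure was tested on simulated data. DESeq2 1.42.0 and limma-voom (3.58.1) were among the 15 distinct alternatives, which also changed the scaling, the filter, the replicate block, a GC and length trend and the libraries included.

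The 42 genes and the further lists were chosen with earlier results of these data known. DEPDC1, every called gene and HLA-B, B2M, TAP1, NLRC5, CIITA, CD74 and CD274 are given per library, and up to 3 called genes with the smallest adjusted p are named from each further list. IFNGR1, NFYB, PSMB5, VIM, CD44, ESR1, PGR, ERBB2, CSF1R, CD3D, PTPRC, IFI30, PDGFRB, PECAM1, HLA-DPB1 and overlapping genes were named after their values were seen. Some genes of the further lists are not reported here. No repeated library was found: replicate pairs differed by 1.68 to 4.68 times the sampling noise (chi-square over degrees of freedom).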

Additional observations from a re-analysis of the deposited data

Results flagged for a closer look

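In 3 of 52 sets of 4 siDEPDC1 values, 1 library stood far from the others, measured as its gap to the nearest library over the whole range (past Dixon's limit for 4 values, which chance passes in about 1 in 20 sets). TAPBPL was at 7.22 CPM in siDEPDC1 replicate 4, against 7.81 to 7.92 CPM in the other siDEPDC1 libraries (gap share 0.846). ULBP2 was at 30.7 CPM in siDEPDC1 replicate 3, against 24.8 to 25.9 CPM in the others (gap share 0.8291). The median log2 level of the NK cell receptor ligands relative to siCTL was -0.0058 in siDEPDC1 replicate 1, against 0.040 to 0.046 in the others (gap share 0.880). Neither TAPBPL nor ULBP2 passed the test with all libraries.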

How the results depend on the processing

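Across 15 distinct alternatives no called gene changed direction, 13 of the 20 called genes kept the call in every one, and 7 lost it in at least 1. Another 9 were called in at least 1. Removing a GC and length trend (span 0.4, known for 98.9% of tested genes) called 19 of the list lower, and 3330 of all 16583 tested genes. The added falls were HLA-F, TAPBPL, PSMB8, PSMB9, CD74, IRF1 and CD276. The removal also added CIITA to the rises and dropped RFXANK. The median log2 fold change of the list, -0.096, was -0.066 with library size alone (where the median of all genes was 0.031), -0.11 with no count filter, -0.078 with at least 50 counts per library (PDCD1LG2 was then not tested), -0.12 after GC and length removal and -0.11 with the replicate block. Leaving out each library in turn gave 7 to 12 genes lower, 7 to 8 higher and medians of -0.12 to -0.081. Deviations from the group means had correlations of -0.19, 0.047 and -0.23 between same-numbered libraries, and of -0.098 to 0.24 between the others. The deviations within a group depend on each other, so these values cannot show whether the replicate numbers 1 to 3 pair the libraries. A replicate block on these numbers gave 10 listed genes lower and 7 higher, and 2437 and 2292 of all genes. The same 6 libraries with no block, which is the fit without siDEPDC1 replicate 4, gave 12 and 7, and 2767 and 2627. Depth limits the low genes most: mean counts of the list ran from 44.7 to 18892.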

Other observations

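Of 8 further genes, peptidases and general protein quality control genes of the endoplasmic reticulum, 5 fell and 0 rose, beside 17.9% and 16.5% of all tested genes. LNPEP, the endosomal aminopeptidase that trims peptides for cross-presentation, fell to 60.4 ± 3.75 CPM in siDEPDC1, against 149 ± 8.83 CPM in siCTL (log2 change -1.30 ± 0.062 SE, edgeR adjusted p = 2.3e-18). UGGT1, the glucosyltransferase that sends unfinished class I molecules back to calreticulin, fell (log2 change -0.55 ± 0.059 SE, edgeR adjusted p = 3.4e-09). SEL1L, a subunit of the ubiquitin ligase complex that clears misfolded proteins from the endoplasmic reticulum, fell too (log2 change -0.55 ± 0.063 SE, edgeR adjusted p = 1.6e-08). Of 5 NF-kB subunits, which act on class I promoters, 4 fell, with NFKB1 (log2 change -0.39 ± 0.07 SE, edgeR adjusted p = 4.2e-05), NFKB2 (log2 change -0.28 ± 0.066 SE, edgeR adjusted p = 0.001) and RELB (log2 change -0.32 ± 0.094 SE, edgeR adjusted p = 0.008) having the smallest p.

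Among 13 tested genes of 21 other ligands of NK and T cells, 4 rose and 1 fell, beside 16.5% and 17.9% of all tested genes. NECTIN1, a cell adhesion molecule and ligand of CD96, rose to 61.1 ± 4.07 CPM in siDEPDC1, against 40.7 ± 2.09 CPM in siCTL (log2 change 0.58 ± 0.07 SE, edgeR adjusted p = 3.6e-08), and TNFSF9, the ligand of the costimulatory receptor 4-1BB, rose too (log2 change 0.47 ± 0.10 SE, edgeR adjusted p = 0.00062). ICAM1, the adhesion ligand of LFA-1, fell to 98.4 ± 13.3 CPM in siDEPDC1, against 133 ± 5.90 CPM in siCTL (log2 change -0.43 ± 0.071 SE, edgeR adjusted p = 1.3e-05). CD86 and VTCN1 had 0 counts in all 7 libraries.

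Some markers of other cell types and states also differed. The summed level of 8 fibroblast and endothelial markers was 43.5 to 51.7 CPM in siDEPDC1 and 30.0 to 30.8 CPM in siCTL, a gap that rests on COL1A1. Of the 3 that could be tested, PDGFRB (log2 change 0.33 ± 0.16 SE, edgeR adjusted p = 0.1) and PECAM1 (log2 change -0.18 ± 0.12 SE, edgeR adjusted p = 0.23) did not pass. COL1A1, a collagen chain, rose to 30.2 ± 2.52 CPM in siDEPDC1, against 12.9 ± 1.35 CPM in siCTL (log2 change 1.22 ± 0.091 SE, edgeR adjusted p = 5.4e-13), while DCN, the fibroblast proteoglycan, was at 0 counts. Of 5 mesenchymal markers, CAV1 (log2 change -0.42 ± 0.054 SE, edgeR adjusted p = 1.1e-07) and ZEB1 (log2 change -0.36 ± 0.061 SE, edgeR adjusted p = 1.5e-05) fell. Of 7 tested luminal and epithelial markers, the keratins KRT18 (log2 change 0.30 ± 0.058 SE, edgeR adjusted p = 9.6e-05) and KRT8 (log2 change 0.28 ± 0.062 SE, edgeR adjusted p = 0.00055) rose and CDH1, at 0.372 ± 0.139 CPM in siDEPDC1 and 1.11 ± 0.378 CPM in siCTL, fell (log2 change -1.55 ± 0.41 SE, edgeR adjusted p = 0.003). The part of these differences in the changes of the antigen presentation genes was not tested.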
